A study of Mus musculus with 8 samples.

Results

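This account covers 10 genes that encode receptors for neuropeptides and the proteins that complete the CGRP receptor. They are Calcrl, Ramp1, Ramp2, Ramp3, Oxtr, Crhr1, Ntsr1, Ntsr2, Npy1r and Tacr1. They were taken by symbol from a given list and not by a cut on their values, but with earlier results of these data known. They are 10 of 20692 genes measured. Their levels are the sums of 12 RefSeq targets, 3 for Ramp1 and 1 for each of the other genes.

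As background, calcitonin gene-related peptide (CGRP) acts on a receptor made of the protein of Calcrl, which crosses the membrane as a G protein-coupled receptor, and the protein of Ramp1. Paired with the protein of Ramp2 or Ramp3 instead, the protein of Calcrl is a receptor for adrenomedullin, and the adrenomedullin receptor is best known from blood vessels. CGRP fibres from the parabrachial nucleus end in the central amygdala, and receptors for oxytocin, corticotropin-releasing hormone, neurotensin, neuropeptide Y and substance P have been studied there for their part in fear, pain and feeding. Astrocytes are known for Ntsr2, and endothelial cells for Calcrl and Ramp2.

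Male, unchallenged mice of 2 crosses were used, with 4 libraries per cross and 1 mouse per library. In the PKCd libraries the cross was PKC delta-type::Cre with the reporter Rosa::loxP-STOP-loxP-td-Tomato, at 9 weeks of age (replicates 1 and 2) or 18 weeks (replicates 3 and 4). In the SST libraries it was SST::Cre with the same reporter, at 8 weeks (replicates 1 and 2) or 20 weeks (replicates 3 and 4). All 8 mice thus carried a Cre and the reporter. A reporter of this kind stays on once Cre has acted, so it also marks cells in which the promoter was active only earlier. From bilateral punches of the central amygdala (1 mm across), about 1000 td-Tomato-positive cells were sorted per library after papain treatment.

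Library totals were 10316149 to 18242496 estimated counts at 8 to 9 weeks and 964361 to 2522749 at 18 to 20 weeks, and the names of the deposited files carry 2 codes, 1 for all 4 younger and 1 for all 4 older mice, whose meaning is not given. Age, depth and what these codes stand for therefore cannot be told apart in any older minus younger value below. Prkcd stood at 106.5 to 225.7 TPM (transcript abundance per length, scaled to the same total in every library) in PKCd libraries and 0 to 30.2 TPM in SST libraries. Sst stood at 116.3 to 296.2 TPM in SST libraries and at 222.7 TPM in PKCd replicate 2, and at 0.209 to 13.7 TPM in the other 3 PKCd libraries. PKCd replicate 2 thus held Sst at the level of SST libraries, beside 157.5 TPM of Prkcd, which is within the PKCd range. Neuronal transcripts were a small part of every library: 8 general neuron markers summed to 127.3 to 667.4 TPM and 3 GABA neuron markers to 6.69 to 198.7 TPM, with Slc32a1, the vesicular GABA transporter, at 0 in 4 libraries. Oligodendrocyte markers (8 genes) summed to 11552 to 60655 TPM. Microglial markers (12 genes) summed to 33158 to 56970 TPM in PKCd and 506.3 to 7185 TPM in SST libraries. Of these markers, 12 of 12 were higher in every PKCd than in every SST library, beside 3.88% of all genes tested. In edgeR, 4 of the 12 microglial markers passed an adjusted p of 0.05, all higher in PKCd libraries, beside 0.282% of all genes tested. The part of these cells in the results below was not tested. In such mixed libraries, fewer cells of a type and less RNA per cell cannot be told apart.

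Between the populations, Ramp1 was the member whose levels separated, with higher levels in every SST library, and no member passed the test over all genes. That is 1 of 10 members, beside 6.94% of all genes tested whose ranges separate in either direction. In edgeR, 5 members had enough reads to be tested (Calcrl, Ramp1, Ramp2, Ntsr2 and Npy1r). Of the 5, 0 passed an adjusted p of 0.05, beside 0.282% of the 11328 genes tested. The 32 genes called, which include 4 of the microglial markers above, were all higher in PKCd libraries, and 0 genes were called lower. The genes behind the sort did not pass either. Prkcd had a log2 fold change of 5.36 ± 1.36 (SE, edgeR adjusted p 0.219) and Sst one of -2.78 ± 1.63 (adjusted p 0.845). A gene that did not pass can therefore not be taken as equal between the populations. At an unadjusted p under 0.05 there was 1 member, Ramp1, beside 6.67% of all genes tested. DESeq2 also called 0 of the 5 members (4.01% of all genes) and limma on log2(TPM + 1) called 0 of 5 (1.3%). Without the filter on low counts edgeR tested all 10 members and called 0 (1.6%). The median log2 fold change of the 5, PKCd minus SST, was -1.23, beside -0.08 over all genes tested. The fold was negative in 4 of the 5.

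**Figure D1:**
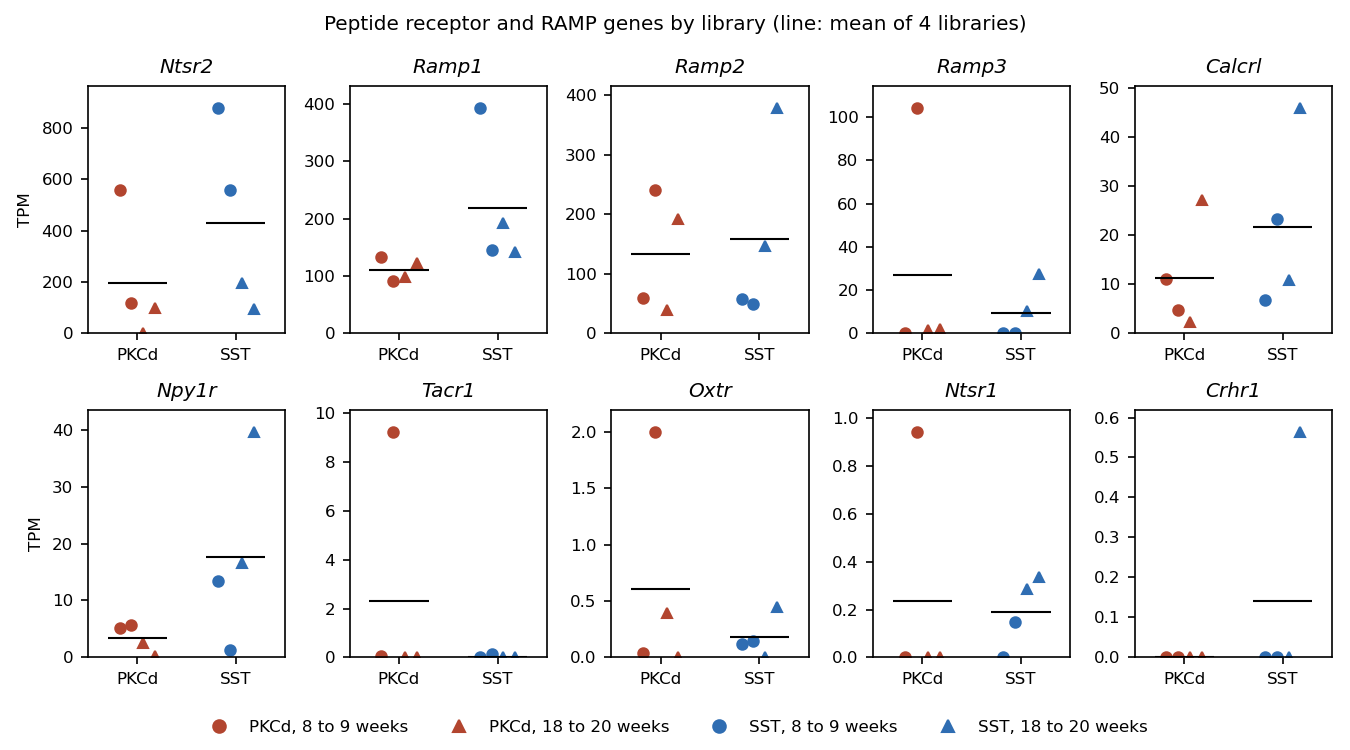
TPM of each of the 10 genes (vertical axes, each from 0) in the 4 PKCd and 4 SST libraries, with circles for mice of 8 to 9 weeks and triangles for mice of 18 to 20 weeks; lines are means of 4. Ramp1 is the gene whose PKCd points (91.8 to 133.7 TPM) all lie under its SST points (142.7 to 392.3 TPM). Such a separation in this direction holds for 3.05% of all genes tested.

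Calcrl (chromosome 2, 84330626 to 84425405, GRCm38), the receptor subunit shared by CGRP and adrenomedullin, was read in all 8 libraries. Its level in PKCd replicates 1 to 4 was 11.1, 4.76, 2.35 and 27.2 TPM. In SST replicates 1 to 4 it was 6.86, 23.3, 10.8 and 45.8 TPM. The ranges overlap widely, and the highest library of each population was its replicate 4. The PKCd mean was 11.4 ± 11.2 TPM and the SST mean 21.7 ± 17.5 TPM (n = 4 and 4, SD), and edgeR gave a log2 fold change of -0.89 ± 0.96 (SE; adjusted p 0.935). The difference is smaller than its error. It ranged from -1.74 without PKCd replicate 4 to -0.29 without SST replicate 4.

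Ramp1 (chromosome 1, 91179822 to 91225196) encodes the partner that makes the Calcrl protein a CGRP receptor. Its level was 133.7, 91.8, 98.0 and 122.4 TPM in PKCd replicates 1 to 4. In SST replicates 1 to 4 it was 392.3, 145.6, 193.0 and 142.7 TPM. Every SST library was above every PKCd library, and SST replicate 1 stood well above the rest; ranges separate in this direction for 3.05% of all genes tested, in the other for 3.88%, and in either for 6.94%. The PKCd libraries lay close together (111.5 ± 19.9 TPM, SD, n = 4) beside 218.4 ± 118.2 TPM in SST libraries, whose mean was 1.96 times as high. In edgeR the log2 fold change of -1.23 ± 0.53 (SE) had an adjusted p of 0.691, which was 0.261 to 1 over its alternatives. Without SST replicate 1 the fold was -0.61 (adjusted p 0.988). Leaving out PKCd replicate 2 gave -0.99, with an edgeR adjusted p of 0.847. Within the age classes it was -1.70 ± 0.78 at 8 to 9 weeks (adjusted p 0.731) and -0.76 ± 0.76 at 18 to 20 weeks (adjusted p 1).

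Markers of mural cells, the smooth muscle cells and pericytes of vessel walls, ran the same way as Ramp1. Their 8 genes summed to 102.5 to 3764 TPM in PKCd and 2145 to 10756 TPM in SST libraries, with 8 of 8 negative in log2 fold change and 0 past the test, and Myh11 at 0 in PKCd replicate 2. The lowest mural sum and the lowest Ramp1 level were both in PKCd replicate 2. SST replicate 1 had the highest Ramp1 level and the next highest mural sum to that of SST replicate 3. Other libraries did not match in this way. PKCd replicate 1 had a mural sum of 891.1 TPM but 133.7 TPM of Ramp1, while PKCd replicate 3 had 3764 and 98.0 TPM. SST replicate 4, with a mural sum of 7823 TPM, had the lowest Ramp1 level of the SST libraries. Over the 8 libraries the log2(TPM + 1) values of Ramp1 and the mural sum had a Pearson r of 0.61. These points share depth and dilution by other transcripts. Vtn made up most of the mural sum, with means of 1431 of 1954 TPM in PKCd and 5479 of 7381 TPM in SST libraries. Without PKCd replicate 2 the r was 0.52 (n = 7). Other lists were also negative throughout, with 6 of 6 oligodendrocyte precursor genes (median -3.37), 5 of 5 fibroblast genes tested (median -2.83) and 8 of 8 oligodendrocyte genes (median -0.53), and 0 past the test in each. By rank, Ramp1 went with the precursor sum (Spearman rho 0.74) as well as with the mural sum (0.69). It ran opposite to the excitatory neuron (-0.74), microglial (-0.62) and endothelial (-0.60) sums. The part of any of these cells in the Ramp1 difference was not tested.

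The split of Ramp1 reads over its targets also separated the PKCd from the SST libraries. Of 19112 Ramp1 reads, 18676 were assigned to the target of 2549 bases, 416 to the one of 852 bases and 20.4 to the one of 931 bases. The share outside the longest target was 6.44% (208 of 3229 reads, 95% exact binomial interval 5.62 to 7.34%) in PKCd replicate 1, and 10.2% (8.57 to 11.98%) in PKCd replicate 2. It was 4.17% (5 of 120 reads, 1.37 to 9.46%) in PKCd replicate 3 and 8.80% (5.38 to 13.4%) in PKCd replicate 4. In SST replicate 1 it was 0.727% (0.571 to 0.912%). SST replicates 2, 3 and 4 had 0 of 3139, 429 and 535 reads there, with exact upper limits of 0.117%, 0.856% and 0.687%; 3 reads would be 0.0956%, 0.699% and 0.561%. Every PKCd library thus had a higher share than every SST library. Of 417 genes with several targets and at least 100 reads in every library, such a share was higher without overlap in PKCd libraries for 8 genes (1.92%) and separated in either direction for 10 (2.4%). These shares were singled out after they were seen, the reads were divided between targets by the authors' tool, and no test was made. The intervals treat these estimated reads as counted and leave out the spread between mice.

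Ramp2 (chromosome 11, 101246334 to 101248250), the partner that makes an adrenomedullin receptor, was at 58.6, 240.7, 38.6 and 192.2 TPM in PKCd replicates 1 to 4. In SST replicates 1 to 4 it was at 58.4, 49.1, 146.1 and 377.3 TPM. Low and high libraries occurred in both populations. The means were 132.5 ± 99.3 and 157.7 ± 152.8 TPM (SD, n = 4 each), and the edgeR log2 fold change of 0.13 ± 0.98 (SE, adjusted p 0.991) had no stable sign: it was negative in 8 of 17 alternatives. It was -0.66 without PKCd replicate 2, 1.44 ± 1.24 at 8 to 9 weeks and -1.19 ± 1.23 at 18 to 20 weeks. In GENCODE M21 the gene has a longer span, 101246028 to 101259546, which overlaps Vps25 on the same strand. Whether the counted RefSeq target overlaps Vps25 was not checked.

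Ramp3 (chromosome 11, 6658506 to 6677478), the other adrenomedullin receptor partner, was read in 5 of 8 libraries and was too sparse for the test. The pseudogene Gm11978 overlaps it on the opposite strand in GENCODE M21, and whether strand was used is not given. PKCd replicate 2 held 789 of its 847 reads (103.9 TPM). PKCd replicates 1, 3 and 4 had 0, 1.69 and 2.15 TPM. SST replicates 1 and 2 had 0 reads, and SST replicates 3 and 4 had 10.3 and 27.6 TPM. The PKCd mean was 26.9 TPM with PKCd replicate 2 and 1.28 ± 1.13 TPM (SD, n = 3) without it, beside 9.49 ± 13.0 TPM (SD, n = 4) in SST libraries. The order of the populations therefore turns on 1 library. A count of 0 allows up to 3 reads, which is 0.245 TPM of Ramp3 in PKCd replicate 1. Such limits, like the intervals, cover counting error only.

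Ramp2 and endothelial markers were high in the same 3 libraries, while Ramp3 was not high in all of these. The 3 libraries with the highest Ramp2 level (SST replicate 4, PKCd replicates 2 and 4) also had the 3 highest sums of the 10 endothelial markers, 9975, 4795 and 10938 TPM. In PKCd replicate 4, which had the highest of these sums, Ramp3 was at 2.15 TPM from 2 reads. In SST replicate 2, where the endothelial sum was lowest at 50.5 TPM and Kdr and Cdh5 were at 0, Ramp2 was still at 49.1 TPM and Ramp3 at 0. SST replicate 1, with Tek and Cdh5 at 0, held 58.4 TPM of Ramp2. PKCd replicate 3 had the lowest Ramp2 level of the 8 libraries, 38.6 TPM, beside the 4th highest endothelial sum, 2884 TPM. The Pearson r of log2(TPM + 1) with the endothelial sum over 8 libraries was 0.73 for Ramp2, 0.66 for Ramp3 and 0.056 for Calcrl. Without PKCd replicate 2 it was 0.71, 0.72 and 0.16 (n = 7). With the sum of 4 choroid plexus and ependyma markers, r was 0.58, 0.42 and 0.59 over 8 libraries. Without PKCd replicate 2 these became 0.77, 0.91 and 0.54. That sum was 3586 TPM in SST replicate 4, and the next highest was 27.9 TPM in SST replicate 3. For Ramp3 and the fibroblast sum, r was 0.25 over 8 libraries and 0.85 without PKCd replicate 2. Endothelial sums spanned 564.7 to 10938 TPM in PKCd and 50.5 to 9975 TPM in SST libraries. The log2 fold change was positive in 9 of 10 markers, and 0 passed the test. Itm2a made up most of the endothelial sum, with means of 2547 of 4796 TPM in PKCd and 1786 of 3184 TPM in SST libraries. The part of endothelial, choroid plexus or fibroblast cells in the Ramp2, Ramp3 and Calcrl levels was not tested.

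The mix of partners differed between libraries more than between populations. The share of Ramp1 in summed RAMP TPM was 69.5, 21.0, 70.9 and 38.6% in PKCd replicates 1 to 4 and 87.0, 74.8, 55.2 and 26.1% in SST replicates 1 to 4. Ramp1 was the most abundant partner in 5 libraries and Ramp2 in the other 3. Those 3 were the libraries with the highest Ramp2 level. Summed RAMP TPM was 138.2 to 547.6, against 2.35 to 45.8 TPM of Calcrl, and it exceeded Calcrl in all 8 libraries.

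**Figure D2:**
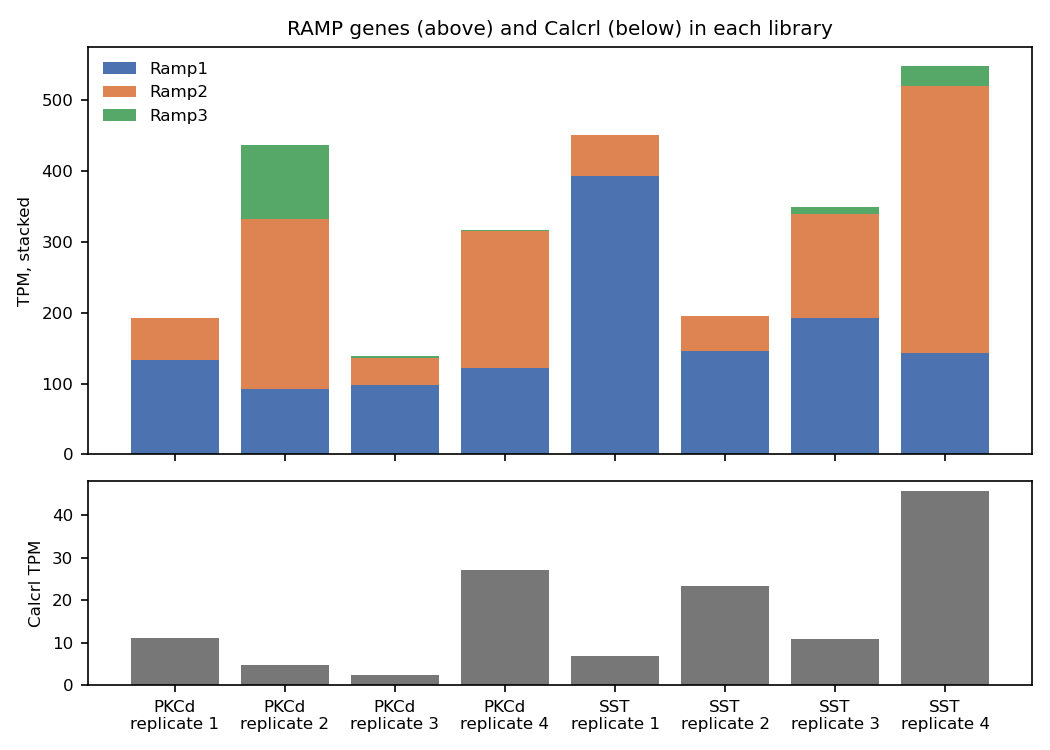
Stacked TPM of Ramp1, Ramp2 and Ramp3 (upper bars) and TPM of Calcrl (lower bars) in each of the 8 libraries, both axes from 0. Ramp3 is visible mainly in PKCd replicate 2 (103.9 TPM), and Calcrl is far below the summed RAMP level everywhere.

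Ntsr2 (chromosome 12, 16653443 to 16660236), a neurotensin receptor, had the highest mean of the 10 genes. Its level in PKCd replicates 1 to 4 was 558.2, 118.3, 2.57 and 100.8 TPM. In SST replicates 1 to 4 it was 876.8, 560.8, 197.7 and 93.5 TPM. The populations overlap, and the 3 highest libraries were all of 8 to 9 weeks. The PKCd mean was 195.0 ± 247.4 TPM and the SST mean 432.2 ± 357.7 TPM (n = 4 and 4, SD), with an edgeR log2 fold change of -1.33 ± 0.82 (SE, adjusted p 0.853). PKCd replicate 3 held only 2 reads of Ntsr2, and without it the fold was -0.93, while without PKCd replicate 4 it was -2.34.

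By age class, Ntsr2 was at 528.5 ± 311.7 TPM in the younger and 98.6 ± 79.7 TPM in the older mice (SD, n = 4 each), 5.36 times as high in the younger. For older minus younger mice, edgeR gave a log2 difference of -2.80 ± 0.86 (SE; adjusted p 0.366). The call depended on the method: DESeq2 gave an adjusted p of 0.0358, and edgeR without the filter gave 0.000922, while limma on log2(TPM + 1) gave 0.154. Leaving out each library kept the fold between -3.81 and -2.25, with edgeR adjusted p from 0.364 to 0.760. PKCd replicate 2, with 118.3 TPM, was the younger library that fell within the older range of 2.57 to 197.7 TPM.

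The sum of astrocyte markers did not follow Ntsr2. Its 10 genes summed to 456.5 to 4100 TPM in PKCd and 3253 to 7209 TPM in SST libraries. The log2 fold change was negative in 7 of 10, and 0 passed the test. Aldoc (means of 1516 TPM in PKCd and 2716 TPM in SST libraries) and Slc1a3 (721.7 and 970.9 TPM) made up most of this sum. Of the 10, Gja1 alone separated the populations, with means of 145.6 and 447.9 TPM. Ranges separate in that direction for 3.05% of all genes tested. The sum was highest in SST replicate 3 (7209 TPM), where Ntsr2 stood at 197.7 TPM. PKCd replicate 3 had an astrocyte sum of 4100 TPM beside 2.57 TPM of Ntsr2. In PKCd replicate 2, which had the lowest astrocyte sum (456.5 TPM) and Aldh1l1 at 0, Ntsr2 was at 118.3 TPM. Over 8 libraries the Pearson r of the log2(TPM + 1) values was 0.03, and -0.047 without PKCd replicate 2. Oligodendrocyte precursor markers (6 genes) went with Ntsr2 more closely, with an r of 0.70 over 8 libraries and 0.74 without PKCd replicate 2. Their sum was 33.6 to 2543 TPM in younger and 36.5 to 246.8 TPM in older mice. The median log2 difference of the 6 genes, older minus younger, was -2.36 beside -0.16 over all genes tested, and 0 passed in edgeR. The part of astrocytes or precursor cells in the Ntsr2 level was not tested.

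**Figure D3:**
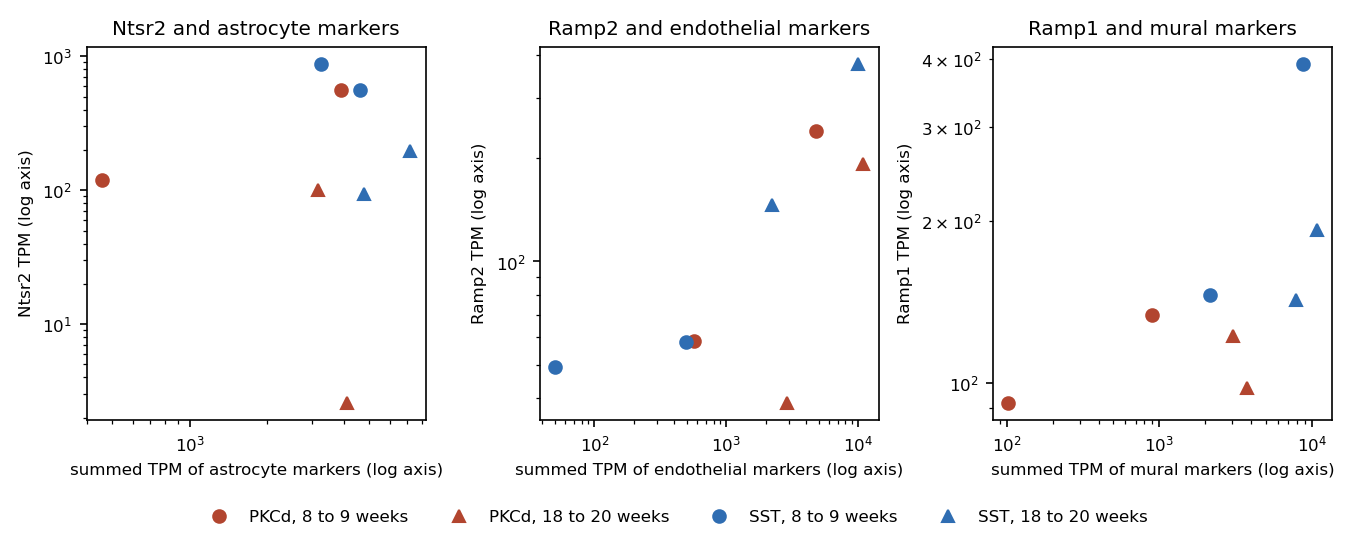
TPM of Ntsr2, Ramp2 and Ramp1 (vertical log axes) against the summed TPM of astrocyte, endothelial and mural cell markers (horizontal log axes), 1 point per library. Ntsr2 shows no common trend with the astrocyte sum (r = 0.03). Ramp2 tends upward with the endothelial sum (r = 0.73) and Ramp1 with the mural sum (r = 0.61). Crosswise, r was -0.36 for Ramp1 with the endothelial sum and -0.11 for Ramp2 with the mural sum.

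Ntsr1 (chromosome 2, 180499976 to 180544979), the other neurotensin receptor gene, gave 34 reads in all, of which 26 lay in PKCd replicate 2 (0.941 TPM). SST replicates 2, 3 and 4 had 0.147, 0.284 and 0.337 TPM, from 5, 1 and 2 reads. The remaining 4 libraries had 0 reads. 6 of the 8 libraries were at or under 3 reads, so no difference could be read from so few reads. The PKCd mean was 0.235 TPM with PKCd replicate 2 and 0 without it, beside 0.192 TPM in SST libraries. In TPM, the mean of Ntsr2 was 313.6 and that of Ntsr1 0.214 over the 8 libraries.

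Npy1r (chromosome 8, 66697149 to 66706800), a receptor of neuropeptide Y, was at 5.21, 5.68, 2.53 and 0.303 TPM in PKCd replicates 1 to 4. In SST replicates 1 to 4 it was at 13.4, 1.29, 16.7 and 39.5 TPM. In 3 of 4 SST libraries the level was above all PKCd libraries, and SST replicate 2 fell among them. The means were 3.43 ± 2.50 and 17.7 ± 15.97 TPM (SD, n = 4 each), 5.16 times as high in SST. In edgeR the log2 fold change of -2.43 ± 1.68 (SE) had an adjusted p of 0.870. It was negative in all 17 alternatives, from -4.30 (18 to 20 weeks alone) to -0.72 (8 to 9 weeks alone), with adjusted p from 0.355 to 1. In PKCd replicate 4 the estimate was under 1 read.

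**Figure D4:**
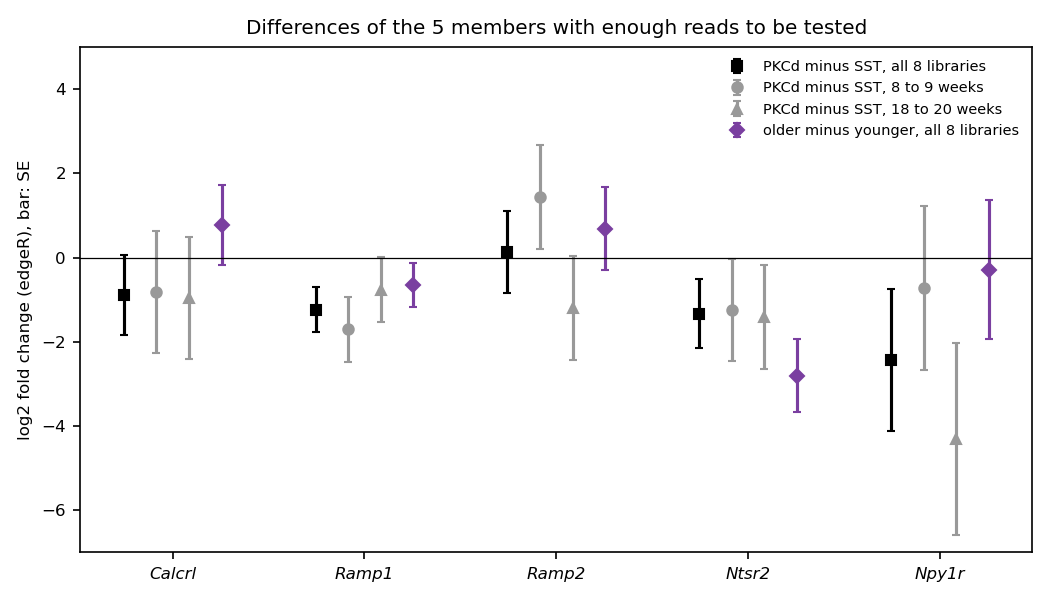
edgeR log2 fold changes with SE (vertical axis) of the 5 tested genes, for PKCd minus SST in all libraries and in each age class, and for older minus younger mice. Ramp2 changes sign between age classes (1.44 and -1.19), and the difference farthest from 0 relative to its error is that of Ntsr2 by age (-2.80 ± 0.86).

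Tacr1 (chromosome 6, 82402003 to 82560104), the substance P receptor, was in effect a gene of 1 library. PKCd replicate 2 held 330 of its 339 reads and stood at 9.21 TPM. PKCd replicate 1 had 3 reads (0.0521 TPM) and SST replicate 2 had 6 (0.136 TPM). The other 5 libraries had 0 reads. The PKCd mean was 2.32 TPM with PKCd replicate 2 and 0.0174 TPM without it, beside 0.0339 TPM in SST libraries, so no order of the populations can be read from Tacr1. In the 4 libraries of older mice a count of 0 still allows 0.390 to 1.08 TPM.

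Oxtr (chromosome 6, 112473683 to 112491035), the oxytocin receptor, had 83 reads, 65 of them in PKCd replicate 2 (2.00 TPM). PKCd replicates 1, 3 and 4 had 0.0384, 0.396 and 0 TPM. SST replicates 1 to 4 had 0.122, 0.150, 0 and 0.449 TPM. The PKCd mean was 0.608 TPM with PKCd replicate 2 and 0.145 TPM without it, beside 0.180 TPM in SST libraries. 5 of the 8 libraries were at or under 3 reads.

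Crhr1 (chromosome 11, 104130463 to 104175523), the main receptor of corticotropin-releasing hormone, had 2 reads in SST replicate 4 (0.563 TPM) and 0 in the other 7 libraries. A count of 0 allows up to 0.112 TPM in PKCd replicate 1 and 2.33 TPM in PKCd replicate 3. In SST replicate 4 the 2 reads were also under the limit of 3, which is 0.844 TPM there. Without the filter on low counts, edgeR gave the 5 sparse members adjusted p-values of 0.890 to 0.998 between the populations.

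**Figure D5:**
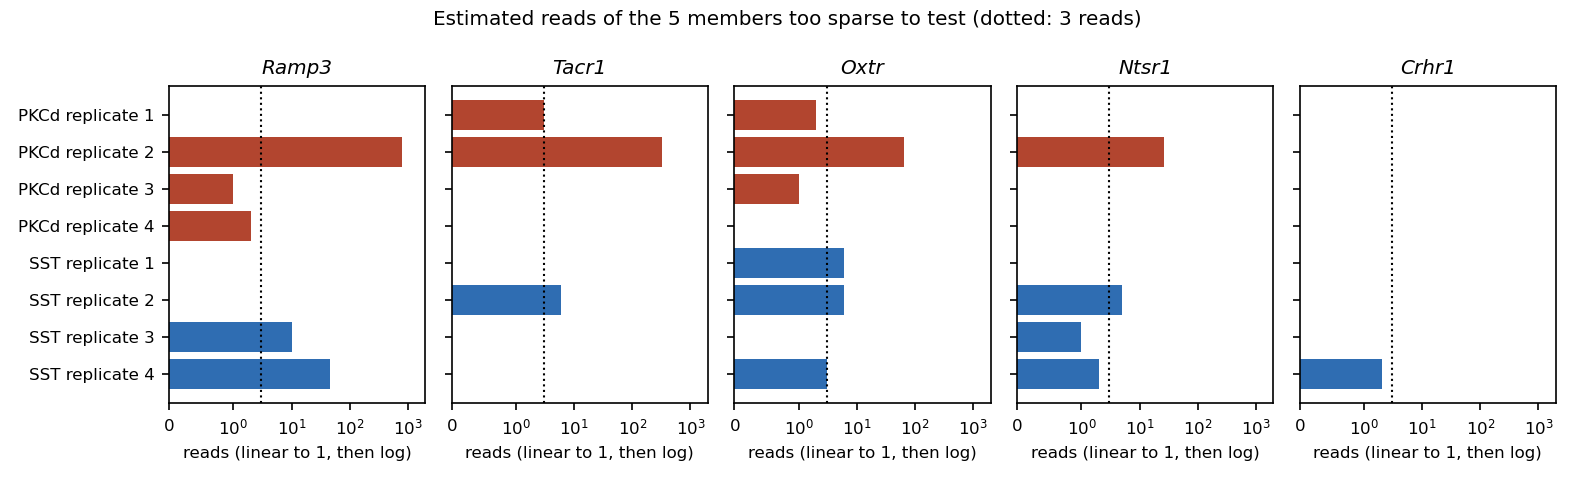
Estimated reads of the 5 members too sparse to test (horizontal axis, linear to 1 read and logarithmic above) in each library; the dotted line marks 3 reads, the limit that a count of 0 allows. PKCd replicate 2 carries 789 of 847 Ramp3, 330 of 339 Tacr1, 65 of 83 Oxtr and 26 of 34 Ntsr1 reads.

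PKCd replicate 2 stood apart for 4 members at once. It held the most reads of Ramp3, Tacr1, Oxtr and Ntsr1, and also the highest TPM of each. Its sum of GABA neuron markers, 198.7 TPM, was the highest of the 8, as was its sum of general neuron markers, 667.4 TPM. It was also the library with the highest Tac2 (106.9 TPM) and Crh (41.8 TPM), genes of 2 peptide ligands, and with 222.7 TPM of Sst. The part of neuron content in these levels was not tested.

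Ranked by mean TPM over the 8 libraries the order was Ntsr2 (313.6), Ramp1 (164.9), Ramp2 (145.1), Ramp3 (18.2), Calcrl (16.5), Npy1r (10.6), Tacr1 (1.17), Oxtr (0.394), Ntsr1 (0.214) and Crhr1 (0.0703). Neighbours in this order overlapped in range in every case. Ntsr2 exceeded Ramp1 in 5 of 8 libraries, and Ramp1 exceeded Ramp2 in 5 of 8. Ramp2 exceeded Ramp3 in all 8 libraries. Ramp3 is ahead of Calcrl only through PKCd replicate 2, since Calcrl was higher in the other 7 libraries. Tacr1 also holds its place through PKCd replicate 2: without it the mean of Tacr1 was 0.0268 TPM, the lowest of the 10, and that of Ramp3 was 5.97 TPM, behind Calcrl (18.2) and Npy1r (11.3). Calcrl and Npy1r split the libraries 4 to 4.

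By age class, 0 of the 5 tested members passed in edgeR, beside 0.053% of all genes tested, and 1 (Ntsr2) had an unadjusted p under 0.05, beside 8.35% of all genes. DESeq2 and edgeR without the filter each called Ntsr2 (5.32% and 1.48% of all genes). The other folds, older minus younger, were 0.77 ± 0.96 for Calcrl, -0.65 ± 0.53 for Ramp1, 0.68 ± 0.98 for Ramp2 and -0.29 ± 1.66 for Npy1r (SE), with adjusted p of 0.769 to 0.977. For 0 of 10 members did the age classes separate, beside 7.68% of genes tested. The interaction of population and age class passed for 0 of 5 members in edgeR (0% of all genes, with 4.12% at an unadjusted p under 0.05 and 0 members there) for 0 of 5 in DESeq2 (0.671%) and for 0 of 10 in edgeR without the filter (0.149%).

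Genes of the same signalling systems were taken from 4 lists. Of 16 genes for peptide ligands of the members, 3 were deep enough to test and 0 passed, with a median log2 fold change of -3.68 beside -0.08 over all genes. Nts, the neurotensin precursor, had a PKCd mean of 51.4 ± 63.4 TPM and an SST mean of 224.7 ± 139.2 TPM (n = 4 and 4, SD; log2 fold change -5.55 ± 2.78 SE, edgeR adjusted p 0.789). Its PKCd levels ran from 0 (replicate 1) to 130.5 TPM and its SST levels from 64.9 to 402.8 TPM. The interaction of population and age class for Nts was 10.8 ± 2.04 (SE, edgeR unadjusted p 0.000304, adjusted p 0.9997). Tac1, the precursor of substance P, was at 20.7 ± 36.6 and 113.7 ± 140.9 TPM, with a negative fold between populations as well (-3.68 ± 1.59). Adm, the adrenomedullin precursor, was at 16.2 ± 21.7 and 37.7 ± 47.3 TPM, but its edgeR fold was the positive one of the 3 (1.71 ± 2.26, adjusted p 0.953), opposite to its means. 5 of the 16, Calcb, Adm2, Ucn, Pyy and Tac4, had no reads in any library.

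Of 13 related receptors and binding proteins, 3 were tested and 0 passed. Crcp, a component of CGRP receptor signalling, had a PKCd mean of 52.7 ± 10.1 TPM and an SST mean of 60.8 ± 36.4 TPM (n = 4 and 4, SD). Sort1, which encodes sortilin, a neurotensin-binding sorting receptor, was at 29.7 ± 22.1 and 11.3 ± 7.31 TPM. Sorl1, a relative of sortilin, was at 8.40 ± 5.20 and 3.36 ± 5.60 TPM. The edgeR adjusted p of the 3 was 0.784 to 0.984.

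Of 26 other peptide receptors, 3 were tested, all 3 had negative folds, and 0 passed. Ednrb, an endothelin receptor, had a PKCd mean of 33.9 ± 21.9 TPM and an SST mean of 169.5 ± 46.9 TPM (n = 4 and 4, SD). Its log2 fold change was -2.19 ± 0.59 (SE, edgeR adjusted p 0.268). It was 1 of the 26 whose ranges did not overlap. Ranges separate in this direction for 3.05% of all genes tested and in either for 6.94%. Ednra, the other endothelin receptor, was at 23.4 ± 20.4 and 54.4 ± 16.3 TPM. Adcyap1r1, the PACAP receptor, was at 9.19 ± 12.5 and 23.7 ± 16.7 TPM. Of 22 genes for G proteins, cyclases, kinases and their regulators, 22 were tested and 0 passed, with 14 positive folds and a median of 0.28. The most abundant were Gnas, the stimulatory G protein subunit (796.3 ± 582.1 and 766.4 ± 552.0 TPM), Rgs4, a regulator of G protein signalling (439.0 ± 413.0 and 1041 ± 771.2 TPM), and Gnai2, an inhibitory subunit (628.3 ± 376.6 and 295.5 ± 273.1 TPM).

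The genes most like each tested member over the 8 libraries, by Pearson correlation of log2(TPM + 1) among 11327 other genes, were these. Kdm4c (r = 0.96), Nupl2 and Gtpbp8 (0.95 each) came first for Calcrl, and Fabp5 (0.93), Eci1 (0.92) and Prdx1 (0.91) for Ramp1. Ccdc59, Pced1b and Gvin1 (0.97 each) came first for Ramp2, Nsmce4a, Ank and Tppp3 (0.98 each) for Ntsr2, and Cycs (0.97), Cabcoco1 (0.96) and Msx1 (0.95) for Npy1r. With 8 libraries that share depth and so many genes compared, values of this size are a description of these libraries.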

How the data were processed

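RNA from sorted cells of 8 mice was amplified with a SMARTer smRNA-Seq kit and sequenced on a HiSeq system, per the labels' protocols. Estimated counts per RefSeq transcript were made by the authors with kallisto, per the file headers, which also give TPM scaled by the authors to length and to the same total per library. Versions (kallisto 0.43.0, BWA 0.7.12) and the build mm10 come from the submitters' processing notes, which give BWA no role. TPM keeps no depth, and a few abundant genes lower the TPM of others.

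Of 30404 targets, 30080 were named from the RefSeq table of GRCm38.p6, 147 from GENCODE M21, and 177 kept their accession. Counts were summed per symbol and rounded. One read is up to 1.04 CPM in the shallowest library; 0 allows up to 3 reads.

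The test was edgeR 4.0.16 (quasi-likelihood, TMM, default filter by population, terms for age class and population) in R 4.3.3, adjusted by Benjamini and Hochberg over all genes tested at 0.05; it was tested on simulated data. A fold is PKCd minus SST on the log2 scale, and its SE is the fold divided by the root of F. Alternatives were RLE scaling, no filter, DESeq2 1.42.0, limma 3.58.1 on log2(TPM + 1) or log2(TPM + 0.1), a fit without age class, a replicate block, single age classes, and leaving out 1 library at a time. Each library is 1 mouse, so p-values measure the spread between mice, sorts and amplifications. The members and lists were chosen with earlier results of these data known. All 10 members are named; of each related list the 3 genes with the highest mean TPM are named, besides any past the test, and for each tested member the 3 most correlated genes. Genes named outside that rule (Tac2, Crh, genes listed at 0) and the Ramp1 target shares were chosen after their values were seen.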

Additional observations from a re-analysis of the deposited data

Results flagged for a closer look

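Single libraries stood far from the other 3 of their population in 5 of the 19 sets of 4 values that hold a read, by the gap to the nearest value over the range. For well-spread values chance gives about 1 in 20, but that rate does not hold for sets that are mostly 0. PKCd replicate 2 was high for Ramp3 (103.9 TPM), Tacr1 (9.21 TPM) and Ntsr1 (0.941 TPM). SST replicate 2 was high for Tacr1 (0.136 TPM, 6 reads) and SST replicate 4 for Crhr1 (0.563 TPM, 2 reads). Where the other 3 values are all 0, as for Ntsr1, Crhr1 and Tacr1 in SST libraries, any read gives such a flag.

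Npy1r levels ran in opposite directions with age in the 2 populations, a difference that did not pass its test. The log2 ratio of mean TPM + 1, older to younger, was -1.42 in PKCd libraries and 1.80 in SST libraries, and the age classes, 2 libraries each, did not overlap within either population. Such separation is common: it occurs for 42.9% of the 11328 genes tested in PKCd and 37.2% in SST libraries, and in opposite directions in both for 3.47%. The interaction term in edgeR was -3.58 ± 2.90 (SE), with an unadjusted p of 0.244 and an adjusted p of 1.00.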

How the results depend on the processing

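The count of members past the test between populations stayed at 0 in all 17 alternatives, and that for the interaction at 0 in all 11. By age class it was 1 (Ntsr2) without the filter and with DESeq2, and 0 in the other 11; the cause was not tested. Of 205 recomputed member folds, 179 kept direction and call, 2 passed newly (both Ntsr2 by age) and 24 changed sign. Ramp2, 0.13 between populations, was -0.15 in limma with either pseudocount and with no age term, -0.26 with the replicate number as a block and -1.19 at 18 to 20 weeks, and -0.66 to 0.75 with 1 library left out. Npy1r by age was 0.32 and 0.072 in limma with a pseudocount of 1 and 0.1, and -1.07 to 0.62 with 1 library left out. Leaving out 1 library also gave ranges across 0 by age for Calcrl (-0.059 to 1.14) and Ramp1 (-0.79 to 0.013), and in the interaction for Calcrl (-2.72 to 1.42), Ntsr2 (-4.46 to 1.23) and Ramp1 (-0.39 to 1.57); the causes were not tested. Same-numbered libraries share no animal, and their deviations from the population means correlated at 0.08, 0.12, 0.06 and 0.17, so the numbers were not taken to pair them; numbers 2 and 4 correlated best with their own number, 1 and 3 did not. With the replicate number as a block, 0 members passed, and 24 genes passed in place of 32. Few reads limit Crhr1, Ntsr1, Tacr1, Oxtr and Ramp3, which were at or under 3 reads in 5 to 8 libraries each. These included deep libraries. Ramp3 had 0 reads in PKCd replicate 1 (18242496 estimated counts) and SST replicates 1 and 2 (14295789 and 16009560). It had reads in all 4 older, shallower libraries. The part of depth was not tested.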
